A study of Mus musculus with 39 samples.

Results

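Brains of mice given soman at 1/2 of the LD50 were compared with brains of mice given 1/10 of the LD50, all sampled at day 1. The LD50 is the dose that kills 50% of animals. The comparison rests on 6 of the 39 libraries of the series, 3 at each dose, picked by the dose and day in their labels and by no measured value. The 3 libraries of 1/5 LD50 at day 1 and the 3 saline libraries are shown beside them, and 18 libraries of the same doses at days 3, 7 and 14 show whether the difference also appears later. Soman was injected under the skin, and the labels give neither strain, sex, age and brain region nor whether it was given once or repeatedly. Mice of the single saline group received saline in place of soman, with no sampling day stated. The design text calls the 3 libraries of a group biological replicates, but the number of animals behind each library is not stated, so that p-values measure the spread between these libraries and no more.

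Soman is an organophosphate that inactivates acetylcholinesterase, so that acetylcholine builds up at its receptors and neurons can be driven into seizures. The endoplasmic reticulum folds secreted and membrane proteins with the help of chaperones, whose genes are induced together when unfolded protein accumulates there. Oligodendrocytes wrap axons in myelin, a stack of membranes rich in a few abundant proteins and in very long lipids.

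RNA was read out as FPKM, fragments mapped to a gene relative to transcript length and library size, for 47561 genes. The depth of each library is unknown, since read counts were not used. The 9 soman libraries of day 1 had FPKM totals from 296479 to 310421, with 25146 to 26524 genes above 0 and with 7.43% to 10.9% of the FPKM in mitochondrial genes. No difference between 1/2 and 1/10 LD50 was detectable in total, genes above 0 or mitochondrial share (two-sided exact permutation tests, p = 0.4, 0.3 and 0.7, where 3 against 3 libraries cannot go below 0.1). At each dose of day 1, replicate 3 lay between replicates 1 and 2. Among genes of mean FPKM 5 or more that were over 2-fold apart in those 2 libraries, 73.2% (of 41 genes), 78.8% (of 66) and 69.5% (of 59) of the values of replicate 3 at 1/10, 1/5 and 1/2 LD50 fell between positions 0.3 and 0.7 on the path joining those 2. Not one of the 36 libraries outside its group reached such a share when put at its position. Saline replicate 3 and 3 libraries of days 7 and 14 did the same. Results are therefore given with and without these 7 libraries. Brain markers were present, with the sum of 16 myelin genes at 2547 FPKM or more in each day 1 library. A list of 15 T cell, B cell and neutrophil genes summed to 9.58 to 10.3 FPKM at 1/10 LD50. Its sum was 7.345 to 8.78 FPKM at 1/5 and 7.77 to 8.71 at 1/2 LD50. Of its genes 2, Cd3d and Cd8a, were listed at 0 in each day 1 library.

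Between 1/10 and 1/2 LD50 the chaperone gene Calr and the myelin gene Mal rose, each the 1 called member of its list (27 and 16 genes). Among the 8 genes that fell were Cacna2d1, Kcnh7, Ano3 and the ribosomal protein gene Rpl30. Neither the chaperone nor the myelin list held a call without the 7 libraries that lie between others. The same was true in the model of the 3 soman groups of day 1 alone. Of 14701 genes tested with limma on log2(FPKM + 1), 35 (0.238%) passed an adjusted p of 0.05, 27 of them higher at 1/2 LD50 (0.184%) and 8 lower (0.0544%). At an unadjusted p under 0.05 there were 1597, of which 825 were higher. In 1586 genes (10.8%) all 3 libraries of 1/2 LD50 lay above all 3 of 1/10 LD50, and in 1470 (10.0%) they lay below. Without the 7 libraries that lie between others, 1 gene passed, Rpl30. Leaving out one library at a time, 11, 7 and 2 genes passed without replicates 1, 2 and 3 of 1/10 LD50, and 10, 25 and 1 without those of 1/2 LD50. The model that held only these 6 libraries called 58 genes, 17 of them among the 35, and that of the 3 soman groups of day 1 called 43, again with 17 of the 35.

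The mean of the middle dose mostly fell within the gap between the outer doses, at places that differed between genes. In 31 of the 35 genes the mean at 1/5 LD50 lay between those of the other doses, compared with 43.0% of all tested genes. The exceptions were Cga and the predicted loci Gm3373, Gm3095 and Gm2897. Any place inside the gap counts as between. At 1/10, 1/5 and 1/2 LD50 the means were 122, 116 and 8.32 FPKM for Rpl30 and 0.326, 0.514 and 6.86 for Gm2974, near 1/10 LD50 at the middle dose. They were 142, 174 and 183 FPKM for Calr, nearer to 1/2 LD50, and 92.2, 116 and 140 for Mal. These 35 genes were picked for the gap between the outer doses, and a wider gap leaves more room between, so that the share is a description. No gene (0%) passed between 1/5 and 1/10 LD50, where 880 had an unadjusted p under 0.05 and median-ratio scaling called 2. Between 1/2 and 1/5 LD50, 7 genes (0.0476%) passed, and 809 before adjustment. These were Rpl30, Ddx3y, a gene of the Y chromosome, and 5 predicted loci. Ddx3y stood at 12.99, 5.29 and 9.23 FPKM at 1/5 LD50 and at 15.0, 13.9 and 15.7 at 1/2 LD50. The saline mean lay between 1/10 and 1/2 LD50 for 34 of the 35 genes (36.9% of all tested), all but Calr. This share too is a description, since the genes were picked for that gap.

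Of 27 genes for chaperones of the endoplasmic reticulum and the unfolded protein response, 1 passed between 1/2 and 1/10 LD50 and 25 had a higher mean at 1/2 LD50. Calr encodes calreticulin, which binds calcium and folds glycoproteins, and it was the member of this list that passed the test. Calr stood at 149, 129 and 148 FPKM at 1/10 LD50, at 179, 172 and 172 at 1/5, and at 171, 197 and 180 at 1/2 LD50. Saline libraries held 211, 213 and 212 FPKM. The lowest library at 1/2 LD50 was above the highest at 1/10, the 1/5 libraries overlapped those at 1/2, and saline was above all of them. Between 1/10 and 1/2 LD50 Calr rose by 0.36 ± 0.06 on the log2 scale (SE, limma adjusted p = 0.00878). It passed in 3 of the 6 fits without one library (adjusted p 0.00899 to 0.0999), and without the 7 libraries the difference was 0.40 with an adjusted p of 0.630.

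Hspa5, the main chaperone of that compartment, stood at 77.0, 69.0 and 81.9 FPKM at 1/10 LD50, at 97.9, 146 and 118 at 1/5, and at 101, 122 and 110 at 1/2 LD50. Its 3 saline libraries held 175, 168 and 182 FPKM. The 1/10 libraries were below every other library, and those of 1/5 and 1/2 LD50 overlapped. Its log2 difference between 1/2 and 1/10 LD50 was 0.55 ± 0.13 and missed the threshold (adjusted p = 0.0556). Pdia4, a disulfide isomerase, stood at 12.9, 12.3 and 12.7 FPKM at 1/10 and at 16.5, 17.4 and 16.6 at 1/2 LD50 (0.38 ± 0.10, adjusted p = 0.129). Creld2, a gene that responds to stress of this compartment, had 7.79, 7.90 and 8.29 FPKM at 1/10 and 10.96, 12.1 and 10.9 at 1/2 LD50 (0.45 ± 0.13, adjusted p = 0.143). In neither gene did the doses overlap.

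**Figure D1:**
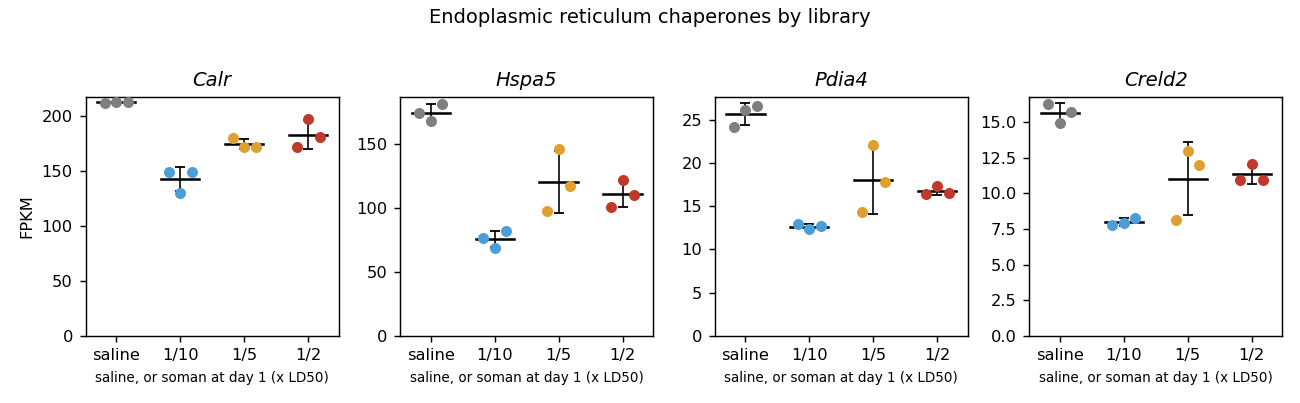
Endoplasmic reticulum chaperones by library, in FPKM, in saline and at 3 soman doses at day 1. Points are libraries, lines the means and bars the SD of 3 libraries. Libraries of 1/10 LD50 lie below those of 1/2 LD50 in all 4 genes, and saline lies above both.

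In 15 of the 27 genes all libraries of 1/2 LD50 were above all of 1/10, and in none below. Over all tested genes these shares were 10.8% and 10.0%. The median log2 difference was 0.20, compared with 0.02 over all tested genes. It was 0.18 between 1/5 and 1/10 LD50, with -0.01 over all genes, and -0.02 between 1/2 and 1/5 LD50. The summed FPKM of the list ran from 847 to 947 at 1/10 LD50, 1037 to 1158 at 1/5, 1039 to 1132 at 1/2 and 1293 to 1355 in saline. The sums of 1/5 and 1/2 LD50 overlapped, and both lay above those of 1/10 and below saline. The transcription factor genes Xbp1, Ddit3, Atf4 and Atf6 differed by 0.27, 0.17, 0.05 and -0.09 between 1/2 and 1/10 LD50 (adjusted p from 0.338 to 0.871), and Edem1, of the degradation pathway, by -0.02. Cytosolic heat shock proteins had a median of 0.06 over 22 genes, with the doses apart and higher in 2 (10.8% of all tested genes).

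The promoters of these genes are shown because a shared sequence, the ER stress response element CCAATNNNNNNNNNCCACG, is known from this gene group. It was searched on both strands of RefSeq promoters (build GRCm38.p6, 250 bases before to 50 after the start of the gene), where N is any base and matches may overlap. Of the 27 list genes 23 had an entry, and 9 of these 23 (39.1%) held the element, as did 39 of all 32851 entries (0.119%) and 19 of the 10941 tested genes with an entry (0.174%). Below are the 250 bases before the start of Calr (chr8:84846932-84847181, minus strand), Hspa5 (chr2:34771840-34772089, plus strand) and Hsp90b1 (chr10:86705445-86705694, minus strand), 5′ to 3′ in the direction of the gene, with the element in capitals. It lies on the opposite strand in Calr, on the same strand in Hspa5 and once on each strand in Hsp90b1.
Calr: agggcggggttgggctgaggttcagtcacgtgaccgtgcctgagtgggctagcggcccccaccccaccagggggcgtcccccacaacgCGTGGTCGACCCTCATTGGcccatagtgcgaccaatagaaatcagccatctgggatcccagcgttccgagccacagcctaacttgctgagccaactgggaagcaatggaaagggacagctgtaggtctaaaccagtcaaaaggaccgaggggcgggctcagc
Hspa5: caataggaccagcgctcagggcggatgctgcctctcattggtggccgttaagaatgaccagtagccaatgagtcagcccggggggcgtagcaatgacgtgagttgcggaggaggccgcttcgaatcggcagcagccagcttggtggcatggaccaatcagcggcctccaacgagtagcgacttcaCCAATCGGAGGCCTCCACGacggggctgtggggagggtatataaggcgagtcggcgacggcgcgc
Hsp90b1: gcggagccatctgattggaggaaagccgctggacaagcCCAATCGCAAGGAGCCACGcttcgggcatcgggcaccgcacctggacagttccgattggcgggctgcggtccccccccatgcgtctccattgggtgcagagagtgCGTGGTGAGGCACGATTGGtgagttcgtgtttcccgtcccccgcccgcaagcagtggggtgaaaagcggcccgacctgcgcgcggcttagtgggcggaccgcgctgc
Hsp90b1, the compartment's member of the HSP90 family, stood at 133, 114 and 131 FPKM at 1/10 and 136, 152 and 149 at 1/2 LD50, which did not overlap (0.21 ± 0.07, adjusted p = 0.225). The median log2 difference was 0.23 in the 9 genes with the element and 0.17 in the 14 without it. A match describes these letters only, and binding was not measured.

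Myelin genes had the largest median difference of the 36 lists with at least 5 tested members. Mal, a proteolipid of myelin membranes, stood at 99.3, 82.6 and 94.7 FPKM at 1/10, at 109, 125 and 114 at 1/5, and at 160, 121 and 137 at 1/2 LD50, with 112, 112 and 119 in saline. It rose by 0.59 ± 0.11 (adjusted p = 0.0171), with the 1/5 and saline libraries between the doses apart from 1 at 1/5. Cldn11, which seals the layers of myelin, stood at 102, 78.0 and 97.9 FPKM at 1/10 and 171, 117 and 143 at 1/2 LD50 (0.62 ± 0.15, adjusted p = 0.0869). Mag and Mog, proteins of the inner and outer myelin face, differed by 0.62 ± 0.16 and 0.62 ± 0.17 (adjusted p = 0.1 and 0.121). Replicate 1 was the highest library at 1/2 LD50 in each of these 4 genes and replicate 2 the lowest at 1/10.

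**Figure D2:**
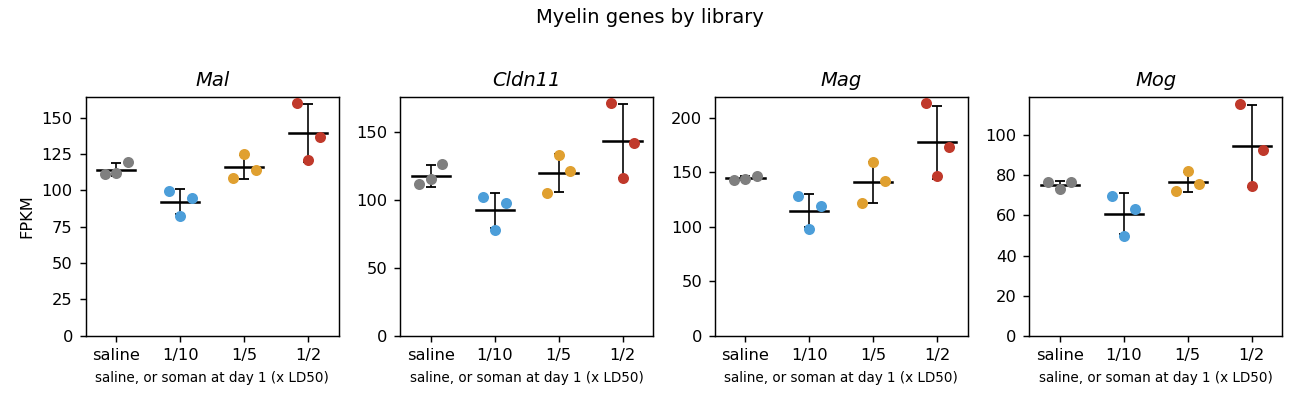
Myelin genes by library, in FPKM, in saline and at 3 soman doses at day 1. Points are libraries, lines the means and bars the SD of 3 libraries. Libraries of 1/10 LD50 lie below those of 1/2 LD50 in all 4 genes, and the means of 1/5 LD50 and saline lie between.

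All 16 myelin genes tested were higher at 1/2 LD50, by 0.30 to 0.62 on the log2 scale with a median of 0.54. Of the 16, 1 passed, and in 12 all libraries of 1/2 LD50 were above all of 1/10 (10.8% of all tested genes). The median was 0.24 between 1/5 and 1/10 LD50. Mbp, a structural protein of myelin, stood at 1345, 1024 and 1109 FPKM at 1/10 LD50 and at 2070, 1359 and 1661 at 1/2 LD50 (0.54 ± 0.19, adjusted p = 0.271). In whole tissue, more oligodendrocytes and more RNA per oligodendrocyte at 1/2 than at 1/10 LD50 cannot be told apart. Leaving out one library, the list's median stayed between 0.39 (without replicate 1 of 1/2 LD50) and 0.69 (without replicate 2 of 1/2 LD50), and it was 0.53 without the 7 libraries. Mal passed in 2 of the 6 fits without one library, and its adjusted p without the 7 libraries was 0.664.

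Genes of oligodendrocyte progenitors differed by a median of 0.20 over 13 genes. In 4 all libraries of 1/2 LD50 were above all of 1/10 (10.8% of all tested genes). Olig2, a transcription factor of this lineage, stood at 10.1, 8.61 and 8.23 FPKM at 1/10 and at 12.9, 13.2 and 12.4 at 1/2 LD50 (0.47 ± 0.11, adjusted p = 0.0585). The defining progenitor genes Pdgfra (0.05) and Cspg4 (0.02) showed little difference.

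Outside the chaperone, myelin and pituitary lists, 8 genes rose among those that reached 2 FPKM as a group mean and are not predicted loci. Sirt2, a deacetylase abundant in oligodendrocytes, stood at 94.2, 85.3 and 88.4 FPKM at 1/10 and 130, 109 and 111 at 1/2 LD50 (0.38 ± 0.07, adjusted p = 0.0171). Elovl1, which lengthens the very long fatty acids used in myelin lipids, stood at 12.8, 9.23 and 10.3 and at 19.3, 13.3 and 15.2 FPKM (0.52 ± 0.11, adjusted p = 0.0307). Gdf11, a secreted factor of the TGF-beta family, stood at 2.72, 2.95 and 3.095 and at 4.76, 3.51 and 4.47 FPKM (0.41 ± 0.08, adjusted p = 0.0203). In none of the 3 genes did the outer doses overlap, but libraries of 1/5 LD50 reached into the range of 1/2 LD50 for Gdf11.
Pdlim2, an adaptor at actin filaments, rose from 5.64 ± 0.943 to 11.1 ± 3.54 FPKM (SD, n = 3 each, adjusted p = 0.0390). Gstt1, a glutathione transferase, rose from 3.36 ± 0.611 to 6.62 ± 0.355 FPKM (0.81 ± 0.18, adjusted p = 0.0463), with all 1/5 libraries between the doses. Aass, which starts the breakdown of lysine, rose by 0.70 ± 0.14 (adjusted p = 0.0229) and Copz2, a subunit of the coat of Golgi vesicles, by 0.46 ± 0.10 (adjusted p = 0.0327). Rgs16, which shuts off G protein signals and belongs to the thalamus list, rose by 0.46 ± 0.10 (adjusted p = 0.0428). Each of the 8 lost its call in at least 4 of the 6 fits without one library.

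Falls were fewer, and Cacna2d1, Kcnh7 and Ano3, 3 of the 8, encode channel or channel-like membrane proteins. They were grouped so after the calls were seen, and the share of such genes among all tested genes was not counted. Cacna2d1, the auxiliary subunit of voltage-gated calcium channels that gabapentin binds, stood at 32.0, 32.5 and 31.1 FPKM at 1/10, at 29.5, 21.5 and 25.0 at 1/5, and at 18.8, 25.1 and 22.2 at 1/2 LD50. It fell by 0.52 ± 0.10 on the log2 scale (adjusted p = 0.0171). Kcnh7, a potassium channel of the erg family, stood at 9.33, 7.54 and 9.25 FPKM at 1/10 and at 4.39, 5.29 and 4.84 at 1/2 LD50 (-0.73 ± 0.16, adjusted p = 0.0327). Ano3, of the anoctamin family of membrane proteins, stood at 23.4, 26.1 and 23.6 and at 12.9, 18.8 and 15.4 FPKM (-0.62 ± 0.13, adjusted p = 0.0307). In all 3 genes the doses did not overlap, and the 1/5 libraries overlapped those of 1/2 LD50, 1/10 LD50 or both.
Wdr17 fell from 7.81 ± 0.210 to 4.65 ± 0.405 FPKM (SD, n = 3 each, adjusted p = 0.0307). Zbtb16, a zinc-finger transcription factor that glucocorticoids induce, fell from 3.17 ± 0.358 to 1.96 ± 0.360 FPKM (adjusted p = 0.0327), while Klf9, Tsc22d3 and Ddit4 of the same glucocorticoid list differed by -0.25, 0.21 and 0.23 and did not pass. Gtdc1, which resembles a glycosyltransferase, fell from 14.3 ± 0.226 to 10.8 ± 0.742 FPKM (adjusted p = 0.0427). The median length of the longest transcript was 5782.5 bases in the 8 genes that fell, 1955 in the 25 of 27 that rose and have a length, and 3281 over all tested genes. After a length trend had been taken out of every library, 31 genes passed, 30 of them among the 35.

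**Figure D3:**
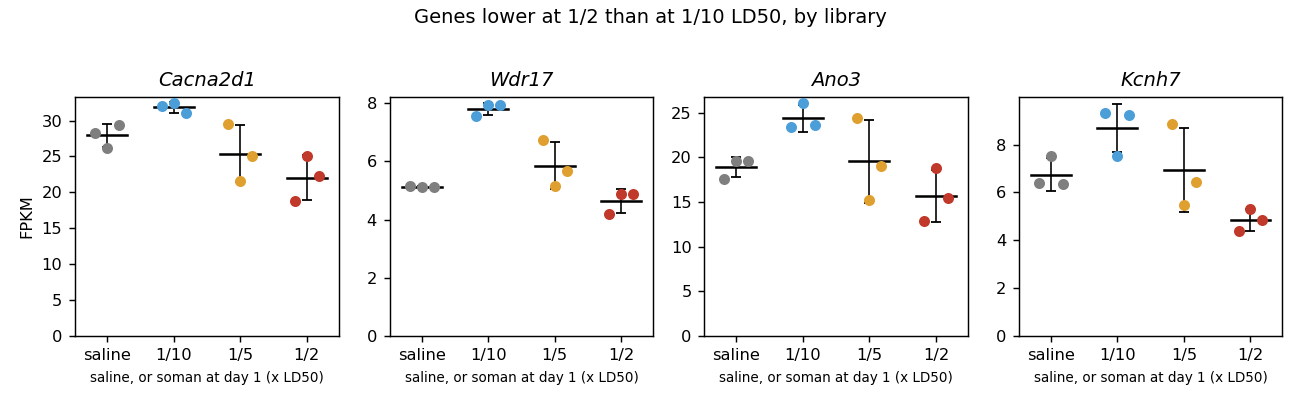
Genes lower at 1/2 than at 1/10 LD50, by library, in FPKM, in saline and at 3 soman doses at day 1. Points are libraries, lines the means and bars the SD of 3 libraries. All libraries of 1/10 LD50 lie above those of 1/2 LD50, and the means of 1/5 LD50 lie between.

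Of the genes next in line that did not pass, Serpini1, a protease inhibitor secreted by neurons, differed by -0.44 ± 0.10 (adjusted p = 0.0550). Slc30a4, a zinc transporter, differed by -0.32, Nuak1, a kinase related to AMPK, by -0.35, Mctp1, a membrane protein with C2 domains, by -0.37 and Tmtc1, a mannosyltransferase, by -0.25 (adjusted p from 0.0661 to 0.0941). In each of the 5 the libraries of 1/2 LD50 lay below those of 1/10.

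Of the markers of brain regions, 0 of 18 striatal, 0 of 19 cortical and hippocampal and 1 of 16 thalamic genes passed. Striatal genes had a median of -0.35 over 18 tested, 17 of them lower at 1/2 LD50, and cortical and hippocampal genes one of -0.25 over 19, again 17 lower. The dopamine receptor genes Drd1 (-0.53) and Drd2 (-0.36) and the cortical transcription factor genes Emx1 (-0.60), Fezf2 (-0.69) and Bcl11b (-0.40) had lower means at 1/2 LD50 and did not pass, with adjusted p from 0.18 to 0.233. In 4 striatal and 7 cortical genes all libraries of 1/2 LD50 lay below all of 1/10 (10.0% of all tested genes). Thalamic genes had a median of 0.21 over 16 tested, all higher at 1/2 LD50. Tcf7l2, a transcription factor of thalamic neurons, differed by 0.38, Prkcd, a protein kinase, by 0.45 and Plekhg1 by 0.33 (adjusted p from 0.177 to 0.213). The summed FPKM of the striatal list was 493 to 647 at 1/10, 378 to 514 at 1/5, 391 to 516 at 1/2 LD50 and 455 to 467 in saline. The part of these regional markers in the myelin and neuronal differences was not tested.

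No member of the channel and receptor lists passed, and Cacna2d1 and Kcnh7, which fell, are not among these members. Of 26 voltage-gated channel genes 21 were lower at 1/2 LD50 (median -0.10), with the doses apart and lower in 7 (10.0% of all tested genes). Glutamate receptor subunits had a median of -0.11 over 22, with 7 apart and lower, and GABA-A subunits and enzymes one of -0.13 over 19, with 6. Gria2, an AMPA receptor subunit, differed by -0.38 ± 0.12 (adjusted p = 0.206) and Grin2a, an NMDA receptor subunit, by -0.33 ± 0.10 (adjusted p = 0.182).

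The gene of the enzyme that soman inactivates did not pass. Ache stood at 28.5, 24.5 and 27.1 FPKM at 1/10, at 28.1, 29.3 and 28.3 at 1/5, at 39.2, 27.9 and 33.6 at 1/2 LD50 and at 34.9, 31.5 and 30.2 in saline. The doses overlapped, with a log2 difference of 0.31 ± 0.13 (adjusted p = 0.391). Bche, the related butyrylcholinesterase, differed by -0.19 ± 0.13 (adjusted p = 0.621) and Chat, which makes acetylcholine, by 0.01 ± 0.17 (adjusted p = 0.987). Of 15 cholinergic genes tested none passed, and the median was 0.01. The muscarinic receptor genes Chrm1, Chrm3 and Chrm4 differed by -0.45, -0.41 and -0.43, with adjusted p from 0.222 to 0.299.

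Vascular, glial and immune lists had medians closer to 0 than myelin. Endothelial genes had a median of 0.22 over 16 tested. Tek, the angiopoietin receptor, stood at 3.60, 3.98 and 3.78 FPKM at 1/10 and at 5.13, 4.92 and 5.09 at 1/2 LD50, with no overlap (0.34 ± 0.08, adjusted p = 0.0575), and the VEGF receptor Kdr and the cadherin Cdh5 differed by 0.34 and 0.24 (adjusted p = 0.162 and 0.246). Choroid plexus and hypothalamic genes had medians of 0.23 and 0.24, and their leading members Calml4, Aqp1, F5, Irs4 and Nnat did not pass (adjusted p from 0.394 to 0.556). Interferon-stimulated genes had a median of 0.21 over 19, microglial genes 0.10 over 18, reactive astrocyte genes 0.10 over 11 and immediate early genes 0.09 over 34, and no member passed.

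Among the saline and day 1 libraries, the pituitary hormone genes Cga, Gh and Prl were highest in 2 of the 3 libraries of 1/2 LD50. Pituitary hormones also appeared in saline and at day 7. Cga, the shared subunit of the glycoprotein hormones, stood at 0.307, 3.30 and 2.46 FPKM at 1/2 LD50, at 0, 0.0767 and 0 at 1/10 and was listed at 0 in all 3 libraries of 1/5 (log2 difference 1.39 ± 0.29, adjusted p = 0.0307). Growth hormone, Gh, stood at 0.241, 38.4 and 16.1 FPKM at 1/2 LD50 and at 0.169, 0 and 0 at 1/10 (adjusted p = 0.179), and prolactin, Prl, at 0, 2.01 and 0.641 and at 0.0720, 0.0486 and 0 (adjusted p = 0.467). The 3 rank alike, with replicate 2 highest and replicate 1 lowest. Of 10 pituitary genes with values, 3 could be tested, and Ghrhr and Gnrhr stood at 0 in every day 1 library. Gh was also present in saline, at 6.18, 0 and 2.15 FPKM. The summed list ran from 0.425 to 0.676 FPKM at 1/10, from 1.19 to 44.7 at 1/2 LD50 and from 0.428 to 7.18 in saline. At day 7, Gh and Prl passed as higher at 1/2 than at 1/10 LD50 (log2 differences 3.67 and 1.48, adjusted p = 0.0111 and 0.0067). That comparison holds 2 libraries of high mitochondrial share at 1/10 LD50. At day 1 the log2 differences of Gh and Prl were smaller, at 3.16 and 0.71. The part of pituitary tissue in the call of Cga was not tested. Pomc, which pituitary and hypothalamus both express, was higher in the same 2 libraries, at 1.95, 5.80 and 4.32 FPKM, than at 1/10 LD50, at 1.12, 2.10 and 1.42 (adjusted p = 0.252).

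Rpl30, a protein of the large ribosomal subunit, showed the smallest p. It stood at 110, 122 and 134 FPKM at 1/10, at 116, 128 and 104 at 1/5, at 9.58, 6.61 and 8.77 at 1/2 LD50 and at 59.0, 72.1 and 62.4 in saline. In the 36 libraries outside 1/2 LD50 at day 1 it ranged from 59.0 to 178 FPKM, above all 3 of that group. It fell by 3.73 ± 0.31 on the log2 scale (adjusted p = 6.36e-09) and passed in all 6 fits without one library and without the 7 libraries (adjusted p = 0.000167). Its level is uncertain, because the genome holds near-identical copies among which reads can be split. The pseudogene Rpl30-ps9 moved the other way, from 0.778, 0.764 and 0.548 to 8.48, 6.98 and 7.94 FPKM (adjusted p = 0.0203). With its 7 listed pseudogenes added, Rpl30 came to 117, 131 and 137 FPKM at 1/10 and 25.2, 19.9 and 23.2 at 1/2 LD50. Of the 37 ribosomal protein genes tested the other 36 did not pass, and the median of the list was 0.10. Rps18 swung between replicates, at 71.7, 6.79 and 35.0 FPKM within 1/10 LD50 (adjusted p = 0.548). Rps26 stood at 131, 150 and 142 FPKM at 1/10 LD50. It swung at 6.84, 77.0 and 37.1 within 1/2 LD50, all below 1/10 LD50 (adjusted p = 0.430). The pseudogene Rps26-ps1 went the other way, from 3.79, 1.41 and 1.43 FPKM at 1/10 to 108, 47.1 and 67.5 at 1/2 LD50.

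**Figure D4:**
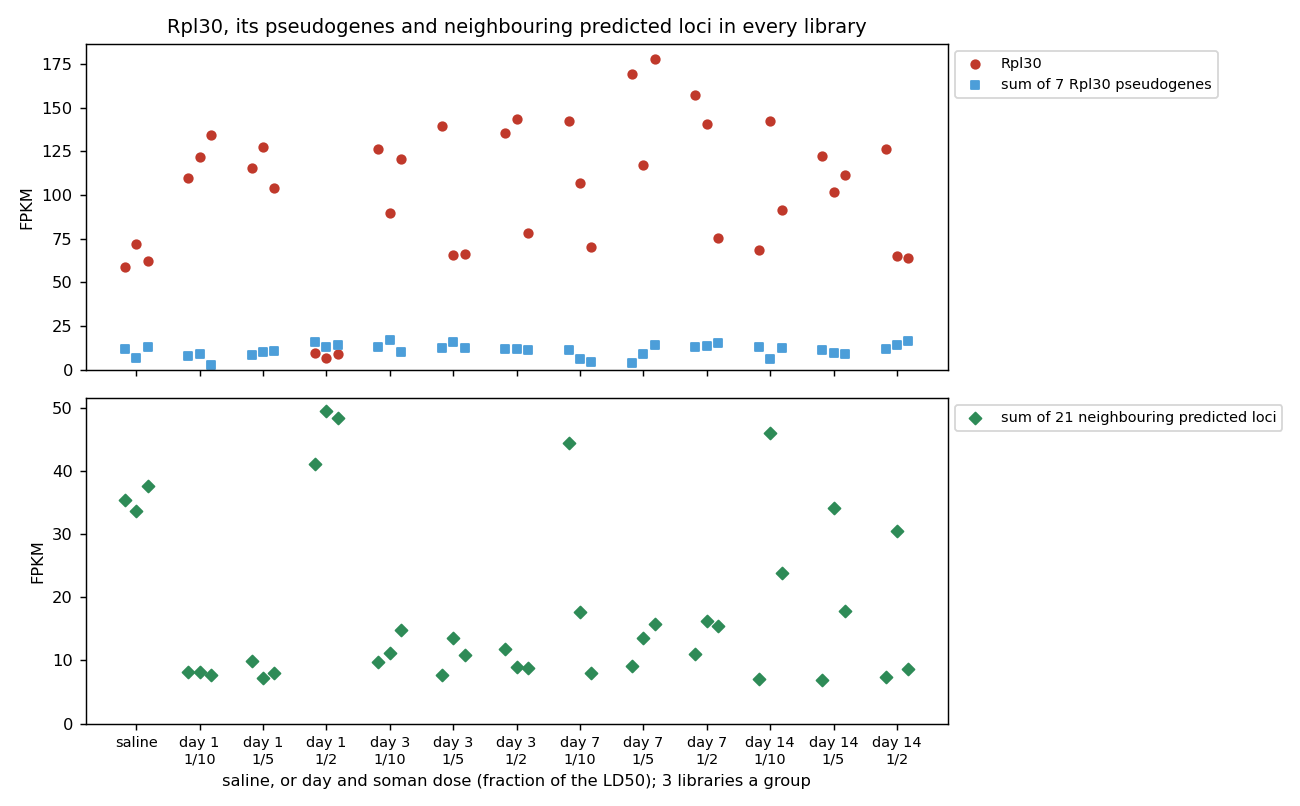
Rpl30 and the sum of its 7 pseudogenes (upper panel), in FPKM, in all 39 libraries grouped by day and soman dose. The lower panel shows the sum of the 21 tested predicted loci of the run from Gm2897 to Gm3696. These loci neighbour one another and were not picked for nearness to Rpl30. Rpl30 is at 6.61 to 9.58 FPKM only at 1/2 LD50 at day 1 and at 59.0 or more in the other 36 libraries, while the loci are high in saline, at 1/2 LD50 at day 1 and in single libraries of days 7 and 14.

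A cluster of predicted loci made up 11 of the 27 rises. It was singled out after its values were seen. In RefSeq order the run from Gm2897 to Gm3696 holds 138 annotated genes, of which 109 were in the table and 21 were tested. Of these, 11 were called and none fell. In 20 all libraries of 1/2 LD50 were above all of 1/10 (10.8% of all tested genes). Summed over the 21, the level was 7.72 to 8.19 FPKM at 1/10, 7.25 to 9.84 at 1/5, 41.0 to 49.4 at 1/2 LD50 and 33.6 to 37.7 in saline. It ranged from 6.91 to 46.0 FPKM over the 27 libraries of days 3, 7 and 14. The sequences of these loci were not compared here. Reads can be split among loci of similar sequence, so that the level of any single one is uncertain. In all, 15 of the 35 called genes (42.9%) were predicted loci or pseudogenes, compared with 10.5% of the tested genes.

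None of the 35 genes of day 1 passed in the same direction at day 3, 7 or 14. No gene (0%) passed between 1/2 and 1/10 LD50 at day 3 and 1 (0.00680%) at day 14, with 778 and 661 at an unadjusted p under 0.05. At day 7 there were 2597 (17.7%), but 2 of the 3 libraries of 1/10 LD50 at that day had a mitochondrial share above 20%. Without these 2, 1 library of that dose is left, too few for a count of calls to be read. Of the 35 genes of day 1, 2 passed at day 7, Calr and Sirt2, both in the opposite direction. The dose difference at day 1 differed from the mean of the later days in 71 genes (0.483%). Of these, 37 were more positive at day 1 (0.252%) and 34 more negative (0.231%), and 23 of the 35 were among them. Both tests hold the same day 1 difference from the same libraries, so that this overlap is a description. The count of 71 became 13 when day 7 was left out of the later days, and 1 without the 7 libraries. Of the chaperones 6 of 27 were more positive at day 1, namely Calr, Hspa5, Hsp90b1, Manf, Pdia3 and Pdia4, and 1 (Calr) without day 7. The median of the chaperone list was 0.20 at day 1, -0.05 at day 3, -0.19 at day 7 and 0.01 at day 14, and that of the myelin list 0.54, -0.04, -0.03 and 0.09. Over all tested genes it was 0.02, 0.04, 0.06 and 0.02.

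**Figure D5:**
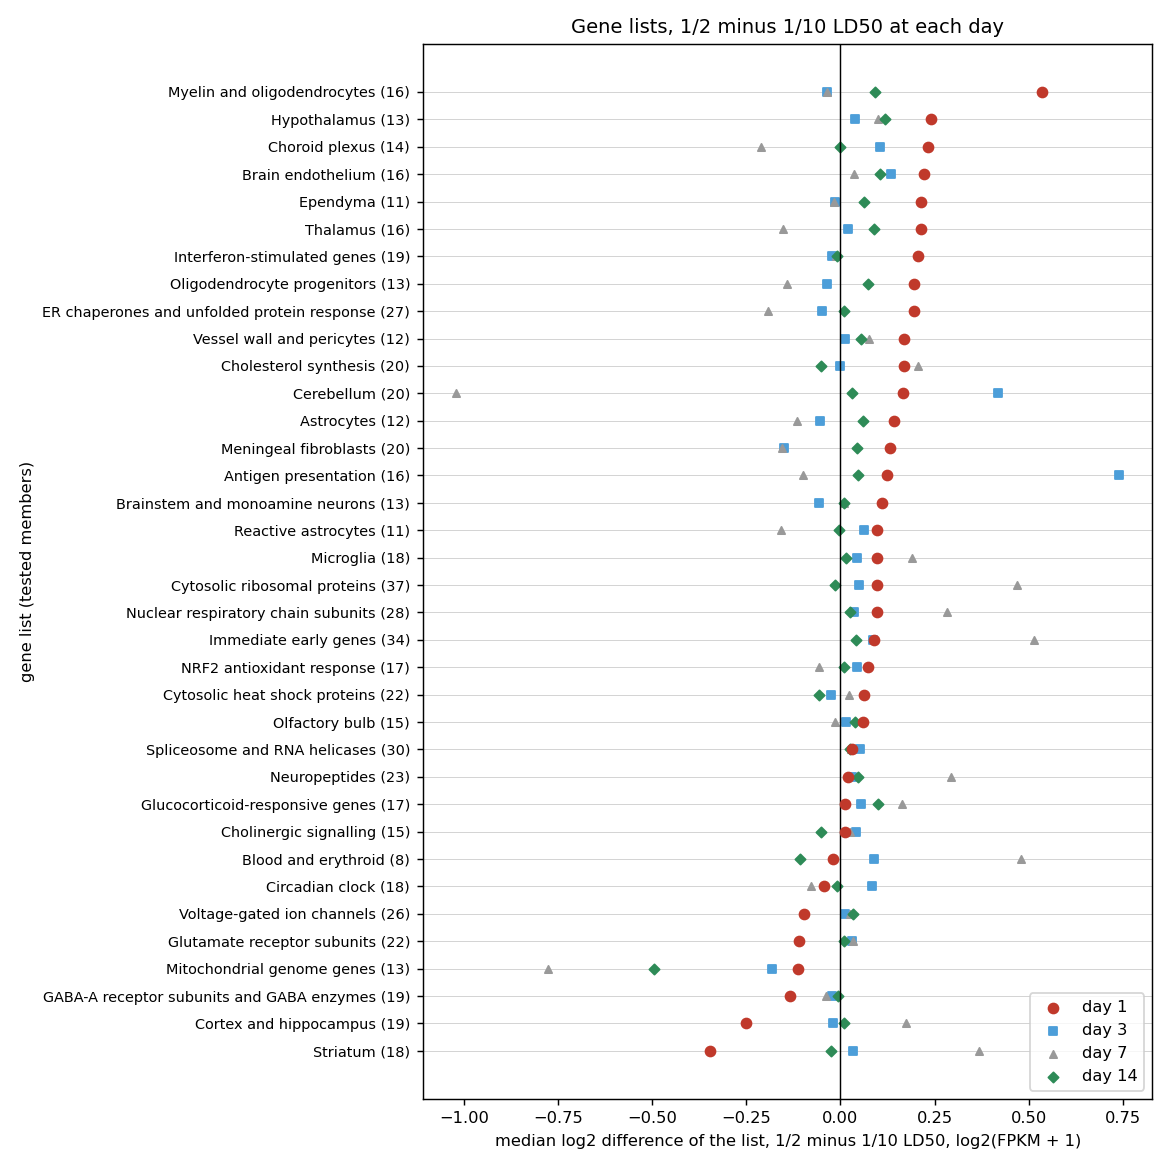
Median log2 difference, 1/2 minus 1/10 LD50, of 36 gene lists at days 1, 3, 7 and 14, with the number of tested members in brackets. At day 1 the myelin list is highest at 0.54 and the striatal list lowest at -0.35.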

How the data were processed

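RNA of mouse brain was extracted with Trizol and selected with poly(dT), per the labels' protocols. The authors deposited 1 table of FPKM values of 39 libraries, and the submitters' processing notes name HISAT2 and, for these mouse samples, the build GRCh38; versions and the annotation are not given in the sources used here. FPKM hold no read counts, so depth and counting error are unknown. All columns of samples were mapped to labels, with 0 left over.

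Values were taken as log2(FPKM + 1), a scale on which the change of low genes is understated. Genes at 1 FPKM or more in at least 3 libraries were kept. A model of the 13 group means was fitted to all libraries with limma 3.58.1 in R 4.3.3 (empirical Bayes with trend), so that all groups share the estimate of spread, and p-values were adjusted by Benjamini-Hochberg over the 14701 genes. The script was tested on simulated data. Lengths came from GENCODE transcripts (known for 95.94%) and promoters from RefSeq. Named were, beside cholinesterase genes, up to 12 called genes in each direction at 2 FPKM or more that are not predicted loci, the strongest genes short of the threshold, up to 4 members of lists with a call, 3 of the 6 lists with the largest medians, and 5 genes of the comparison with later days; other genes were chosen after their values were seen. Members and lists were chosen with earlier results of these data known. Alternatives were another pseudocount, no filter, median-ratio scaling, a replicate block, a length correction, fewer groups and libraries left out. Plots used Python 3.11.15 with matplotlib 3.10.9.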

Additional observations from a re-analysis of the deposited data

Results flagged for a closer look

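The difference between 1/2 and 1/10 LD50 at day 1 was tested against the mean of the same difference at days 3, 7 and 14 in one limma model. It differed in 16 of the named genes, and the values below are log2 differences at day 1 minus the later mean. Most named genes were picked by the day 1 difference, which this test also holds, so that the 16 are a description. Rpl30 was at -3.7317 (adjusted p = 2.08e-07) and the protein chaperone gene Calr at 0.5183 (adjusted p = 0.000509). Ttpa, which carries vitamin E, was at 0.8867 (adjusted p = 0.00166), and it was also the gene that passed, as lower at 1/2 LD50, at day 14. The chaperone genes Hspa5 and Pdia4 were at 0.7172 and 0.5601 (adjusted p = 0.0168 and 0.0274). The later mean includes day 7, where 2 libraries of 1/10 LD50 had a mitochondrial share above 20%. With day 7 left out of the later days, 1 of the 27 chaperone genes passed, Calr.

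More positive at day 1 were also Elovl1 at 0.6546, Sirt2 at 0.4577 and Gdf11 at 0.4372 (adjusted p from 0.0109 to 0.0282). More negative at day 1 were Ttc4, a co-chaperone, at -1.0645, Wdr17 at -0.7403, Ano3 at -0.6670, Zbtb16 at -0.6085, Serpini1 at -0.5561, Nuak1 at -0.4406, Gtdc1 at -0.4287 and Tmtc1 at -0.3493 (adjusted p from 0.0132 to 0.0356). Without the 7 libraries that lie between others, 1 gene passed this test.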

How the results depend on the processing

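For 1/2 against 1/10 LD50 at day 1, 35 genes passed, with 22 without a filter on level, 1 without the 7 libraries that lie between others, 60 without the 2 libraries of high mitochondrial share, 58 from the compared groups alone, 43 from the 3 groups of day 1, and 1 to 25 without single libraries. For 1/5 against 1/10 LD50 the count of 0 became 2 with median-ratio scaling, 6 without the 2 libraries, 18 from the compared groups alone, 13 from the 3 groups of day 1, and 0 to 13 without single libraries. For 1/2 against 1/5 LD50 the count of 7 became 1 with a pseudocount of 0.1, 12 with the replicate block, 1 without the 7 libraries, 11 without the 2, 16 from the compared groups, 28 from the 3 groups, and 1 to 9 without single libraries. Against later days the count of 71 became 36 without a filter, 1 without the 7 libraries, 17 from the compared groups, 13 with days 3 and 14 alone, and 17 to 101 without single libraries; median-ratio scaling gave 102, 68 of them more positive at day 1 and 34 more negative. At day 7 no count is given without the 2 libraries, because 1 library of 1/10 LD50 is then left. The causes were not tested.

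Chat, at 0.0129, turned to -0.0050 without the 7 libraries and ran from -0.0903 to 0.121 without single libraries. The 18 named genes that passed kept their direction under each alternative, and of them 17 still passed with a pseudocount of 0.1, 17 with the replicate block, 16 with the length correction, 15 with median-ratio scaling, 18 without the 2 libraries, 6 without a filter, 4 from the compared groups, 4 from the 3 groups of day 1, 1 without the 7 libraries and 1 to 11 without single libraries. The replicate block called 37 genes. Whether replicate numbers pair the samples was not settled, since the correlations differed between pairs of doses. Deviations of same-numbered libraries of 1/10 and 1/2 LD50 correlated at 0.053, 0.158 and 0.113, and other numbers at -0.134 to 0.068. Thus 0.158 and 0.113 lay above the range of other numbers. For 1/10 LD50 and the middle dose, same numbers gave 0.048, -0.03 and 0.102, and other numbers -0.156 to 0.092. For the middle dose and 1/2 LD50, same numbers gave -0.294, -0.3 and 0.003, and other numbers -0.1 to 0.346. With 3 libraries a group and no read counts, small differences and low genes cannot be resolved.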
